A study of Mus musculus with 6 samples.

Results

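The C1q/TNF-related proteins (CTRPs) are secreted proteins that end in a globular C1q domain. Most of them carry a collagen-like stretch before that domain, through which they assemble into trimers and larger forms. They are paralogs of adiponectin, the fat-cell hormone, which acts through the membrane receptors encoded by Adipor1 and Adipor2. These receptors couple to AMP-activated protein kinase (AMPK) and to the breakdown of ceramides. C1qtnf12 encodes CTRP12, also called adipolin, an insulin-sensitising protein described in adipose tissue of mice, and its older gene name is Fam132a.

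The 7 C1q/TNF-related genes C1qtnf12, C1qtnf1, C1qtnf2, C1qtnf3, C1qtnf4, C1qtnf6 and C1qtnf7 and the 2 receptor genes Adipor1 and Adipor2 were followed at embryonic day 11.5 of the mouse in the otic vesicle, an epithelial sac from which the inner ear develops. Each probe set, the group of array probes that reads one transcript, was taken when the platform annotation gave it exactly 1 of these symbols. This gave all 9 genes, out of 18193 named on the array, and 18 probe sets out of 34945 with a single gene, 13 for the C1q/TNF-related genes and 5 for the receptors. C1qtnf5 was read only together with the neighbouring Mfrp by a shared probe set and was not used here. C1qtnf12 had drawn attention to the family because it passed an adjusted threshold between the same groups, so its difference is given as a description, and so are those of its relatives, with no test of their own.

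The Mest-KO group held 3 arrays of T-Cre conditional Tbx1 knockouts. The control group held 3 arrays of T-Cre conditional Tbx1 heterozygotes, so by their titles the controls shared the recombinase and were not wild type for Tbx1. The titles do not give the alleles of either group, or the cells in which a copy was missing. T-Cre is driven by the promoter of T (Brachyury), active in early mesoderm. The driver thus directs the deletion to the tissue around the vesicle rather than to the epithelium. Where the deletion took place in these embryos was not checked here. Each array held RNA of both ears from 3 embryos that shared a genotype, freed of surrounding tissue with dispase and pooled, so a value is a pool mean and says nothing of single embryos. The labels call the arrays biological replicates.

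Intensities are the deposited values, scaled by the authors to a trimmed mean of 500 on every array. The table held no detection calls, and precision is limited by how few arrays there are. Log2 differences are Mest-KO minus control after quantile normalization, with n = 3 arrays per group throughout. For the family and receptor genes the standard error (SE) is that of the limma fit over 27022 probe sets. For all other genes it is that of a separate limma fit over 12462 genes, each read from its brightest probe set. Probe sets below the 40th percentile of mean level, an intensity of 34.4, stayed out of both fits and are given as values only. Tbx1 itself, read by 1 probe set, had 909.5, 703.7 and 712.6 in Mest-KO and 898.2, 690.2 and 766.0 in control, and where that probe set lies relative to the deleted part was not analysed here. Of 8 measured markers of the otic epithelium all lay above the filter, with Oc90, which encodes the otoconial protein otoconin-90, at a mean intensity of 11170 in Mest-KO and 11730 in control and Epcam, an epithelial adhesion protein gene, at 6793 and 7453. Mesenchyme markers were present too, with all 12 above the filter. The Mest-KO 1 pool had almost no signal of Xist, the transcript of the inactive X chromosome (16.1, against 2331 or more on the other arrays), and the control 2 pool almost none of the Y-linked Eif2s3y (12.1, against 1373 or more). The array Mest-KO 3 stood apart in its dim range, with a median intensity of 91.0 against 62.1 to 71.0 on the others.

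C1qtnf12 was lower in all 3 Mest-KO pools than in any control pool at its 3 bright probe sets. On the normalized scale 4.68% of all probe sets were lower in this way, and C1qtnf12 was chosen on this contrast. At the brightest, 1439422_a_at, the intensities were 3036, 2819 and 2956 in Mest-KO, against 4307, 4009 and 4062 in control. The highest Mest-KO pool thus stayed well below the lowest control pool. The means were 2937 ± 110 in Mest-KO and 4126 ± 159 in control (SD, n = 3 each), so the Mest-KO level was 71.2% of the control level. After quantile normalization the log2 difference was -0.47 (SE 0.0970, 95% confidence interval -0.706 to -0.234), and it was -0.49 with the deposited scaling alone.

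The second probe set, 1417393_a_at, had 1908, 1810 and 1966 in Mest-KO, against 2916, 2624 and 2368 in control. It gave 71.9% of the control level and a log2 difference of -0.47 (SE 0.116). The third, 1448687_at, had 746.2, 687.9 and 750.2 in Mest-KO, against 1024, 885.7 and 857.9 in control. Its groups did not overlap either, and its log2 difference was smaller, -0.35 (SE 0.103), at 78.9% of the control level. In all 3 of these probe sets Mest-KO 2 was the lowest array and control 1 the highest. The probe sets read the same RNA of the same pools, so they are not further replicates.

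The fourth and dimmest C1qtnf12 probe set, 1455264_at, had 114.0, 79.0 and 58.1 in Mest-KO, against 209.3, 84.9 and 166.8 in control. Here the groups overlapped, since control 2 lay below Mest-KO 1. Its log2 difference was -1.05 with an SE of 0.462, and the 95% interval from -2.17 to 0.0779 included the values of the other 3. Without Mest-KO 3 the difference was -0.64, and without both pools of one sex it was -1.66. It is the probe set with the widest spread of the 4, with an SD of 0.791 log2 units among the Mest-KO arrays, against 0.0667 at the brightest.

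**Figure D1:**
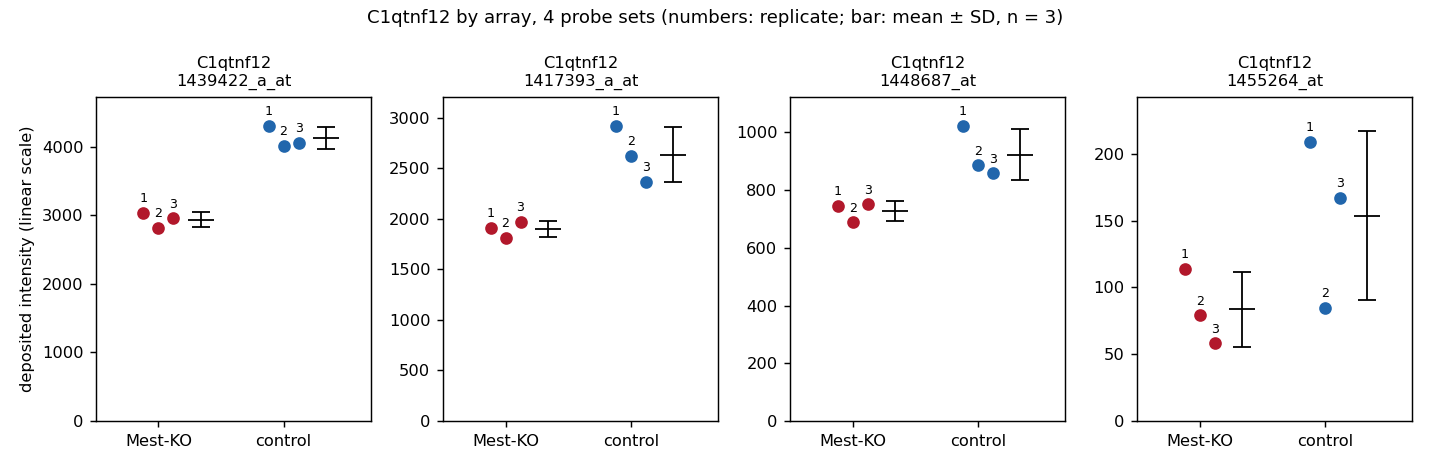
Deposited intensity (linear scale, starting at 0) of the 4 C1qtnf12 probe sets on every array. Points are arrays with their replicate number, Mest-KO in red and control in blue, and the bar beside them is the mean ± SD (n = 3). At the first 3 probe sets every Mest-KO point lies below every control point, as was true of 4.68% of all probe sets on the normalized scale. At 1455264_at control 2, at 84.9, lies below Mest-KO 1, at 114.0.

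When all genes shared 1 variance prior, limma called 0 of 12462 genes (0% of genes) at an adjusted p under 0.05, and C1qtnf12 had an adjusted p of 0.549 there. It was chosen from the fit whose prior follows expression level (limma's trend option), which called 13 genes (0.104%), 12 of them lower in Mest-KO (0.0963%). In that fit C1qtnf12, read from its brightest probe set, had a limma adjusted p of 0.0484, just inside the threshold, together with the mucin gene Muc15 at the same value. The first gene outside was Kcnab1, a potassium channel subunit gene, at 0.0563. When each probe set was tested by itself with the trend, 14 of 27022 probe sets passed (0.0518%), and none of those of C1qtnf12 did, at limma adjusted p of 0.10, 0.304, 0.968 and 0.968 in order of brightness.

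Without Mest-KO 3 the log2 difference at the brightest probe set was -0.49, and without both pools of one sex it was -0.52. The limma adjusted p with the trend lay above the threshold whichever array was left out, to 0.0557 without Mest-KO 1, 0.142 without Mest-KO 2, 0.13 without Mest-KO 3, 0.331 without control 1, 0.173 without control 2 and 0.165 without control 3. Each of these fits has fewer samples. Without the pools of one sex it was 0.143.

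**Figure D2:**
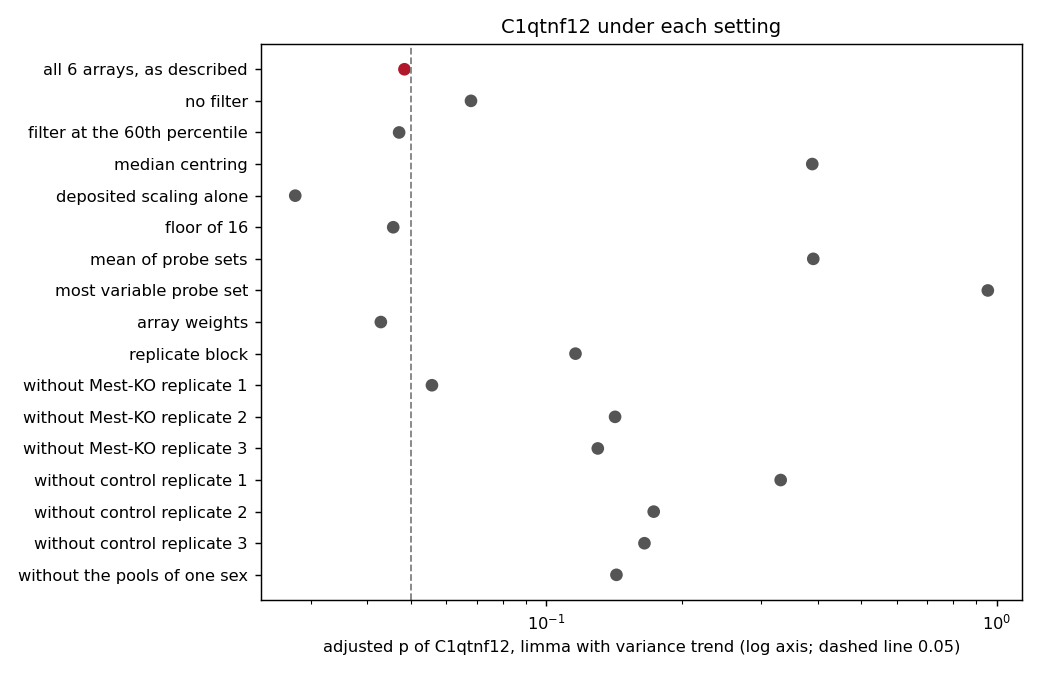
Adjusted p of C1qtnf12 (log axis) in the limma fit with a variance trend, under each setting. The red point is the fit with all 6 arrays, at 0.0484; the dashed line marks 0.05, and points to its right are settings under which C1qtnf12 was not called, among them each of the 6 fits with an array left out.

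In bulk tissue, fewer cells that express a gene and less RNA per cell cannot be told apart. The summed level of the 8 epithelial markers ran from 41400 to 46900 in Mest-KO and from 45700 to 47400 in control, overlapping ranges, and their mean log2 level differed by -0.07. Relative to that mean on the same array, C1qtnf12 stood at -0.51, -0.44 and -0.37 log2 units in Mest-KO. In control it stood at 0.04, -0.09 and -0.07, a difference of -0.40. C1qtnf12 was chosen on this contrast and the marker mean differed little, so this scale could hardly have brought its groups together. Nothing about the share of epithelium is read from it. Of the 8 markers, the keratin genes Krt8 and Krt18 were the ones whose groups did not overlap, at -0.20 and -0.21, as was true of 5.85% of all genes in this direction. The summed mesenchyme markers (12 of 12 measured) ran from 3740 to 7830 in Mest-KO and from 3740 to 6740 in control. The macrophage sum (6 of 6 measured, 3 above the filter) ran from 176 to 376 in Mest-KO and from 243 to 580 in control. The neuronal sum (6 of 6) ran from 7260 to 7750 in Mest-KO and from 7030 to 7330 in control, and that of red blood cells (5 of 6) from 18400 to 21200 and from 17600 to 21200. The endothelial sum was the one marker list whose ranges were apart, 311 to 383 in Mest-KO and 268 to 280 in control (6 of 6 measured, 4 of them, Pecam1, Cdh5, Kdr and Tie1, below the filter). Among single markers above the filter in the other lists, the groups did not overlap for 1 of 12 in mesenchyme and 2 of 6 in neurons. The mesenchyme marker was Lum, lower at -0.48 (SE 0.123), as were 5.85% of all genes in this way. It went against most of its list. Of the 12 mesenchyme markers 9 had a higher and 3 a lower mean in Mest-KO, where 49.1% of all genes were higher. Their median log2 difference was 0.40. The neuronal markers without overlap were Neurod1, at 0.57 (SE 0.144), and Elavl3, at 0.38 (SE 0.121). Both were higher, as were 4.74% of all genes in this way. The other 4 neuronal markers had a lower mean in Mest-KO, and the median log2 difference of the list was -0.04. The part of any of these in the C1qtnf12 difference was not tested. No marker was listed at 0.

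The other 6 C1q/TNF-related genes were dim in this tissue or differed little between the groups. Of the 3 with a probe set above the filter, C1qtnf1, C1qtnf4 and C1qtnf6, none passed with limma. C1qtnf6, which encodes the secreted protein CTRP6, was the one whose probe set lay well above the filter on all arrays. It had 205.0, 169.3 and 215.5 in Mest-KO, against 173.2, 169.7 and 203.1 in control. The ranges nearly coincided, and the log2 difference was 0.04 (SE 0.124), with a 95% interval from -0.261 to 0.345. The C1qtnf12 estimate of -0.47 lies outside that interval, but the interval of C1qtnf12 itself, -0.706 to -0.234, overlaps it. Since C1qtnf12 was chosen on this contrast, no difference between the genes is read from this. The sign of C1qtnf6 turned with median centring (-0.04), without control 1 (-0.02), without Mest-KO 1 (-0.0045) and without the pools of one sex (-0.01).

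C1qtnf4, whose protein departs from the family plan in having a pair of C1q domains and no collagen-like stretch, was read by 2 probe sets. At 1417050_at the intensities were 67.3, 36.4 and 131.5 in Mest-KO, against 67.9, 65.7 and 72.3 in control. The Mest-KO pools lay on both sides of the tightly grouped controls, Mest-KO 2 below and Mest-KO 3 above. The log2 difference of -0.08 (SE 0.371) therefore rests on which pools are included, and ran from -0.47 without Mest-KO 3 to 0.32 without Mest-KO 2. The second probe set, 1441648_at, was below the filter, with 47.1, 32.2 and 20.8 in Mest-KO and 45.5, 21.5 and 20.5 in control.

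C1qtnf1 encodes CTRP1, a plasma protein. Its probe set 1455582_at had 24.7, 47.8 and 117.3 in Mest-KO, against 50.1, 40.5 and 36.5 in control. The high mean of Mest-KO came from Mest-KO 3, the array with the raised dim range, and the log2 difference was 0.21 (SE 0.434) with it and -0.26 without it. Leaving out Mest-KO 1 instead gave 0.63, leaving out both pools of one sex 0.66, and leaving out control 3 0.10. The other probe set, 1448912_at, was below the filter and ran from 4.91 to 30.3 in Mest-KO and from 3.22 to 28.6 in control.

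C1qtnf2, C1qtnf3 and C1qtnf7 had no probe set above the filter. C1qtnf3, also known as cartducin for its part in the growth of cartilage precursor cells, had 1.98, 0.229 and 5.26 in Mest-KO, against 1.77, 0.605 and 4.06 in control, near the floor of 1 used before taking logs. C1qtnf2 had 1.42, 3.96 and 5.56 in Mest-KO, against 1.98, 1.33 and 1.22 in control. These deposited values overlapped, while after quantile normalization the groups did not, as was true of 4.17% of all probe sets in this direction.

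C1qtnf7 was the relative whose deposited values were apart in the direction opposite to C1qtnf12. On the normalized scale 4.17% of all probe sets were higher in this way. At 1429030_at it had 18.3, 10.3 and 13.5 in Mest-KO, against 4.92, 1.21 and 6.51 in control. All of these lie below the filter, and no detection call shows whether they lie above background. With the floor at 16 the log2 difference shrank to 0.14, compared with 1.88 at the floor of 1. At the floor of 1 it was 1.23 without control 2 and 0.84 without both pools of one sex. The second C1qtnf7 probe set had 1.47, 10.6 and 12.4 in Mest-KO, against 4.36, 3.95 and 3.93 in control, with overlapping groups.

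**Figure D3:**
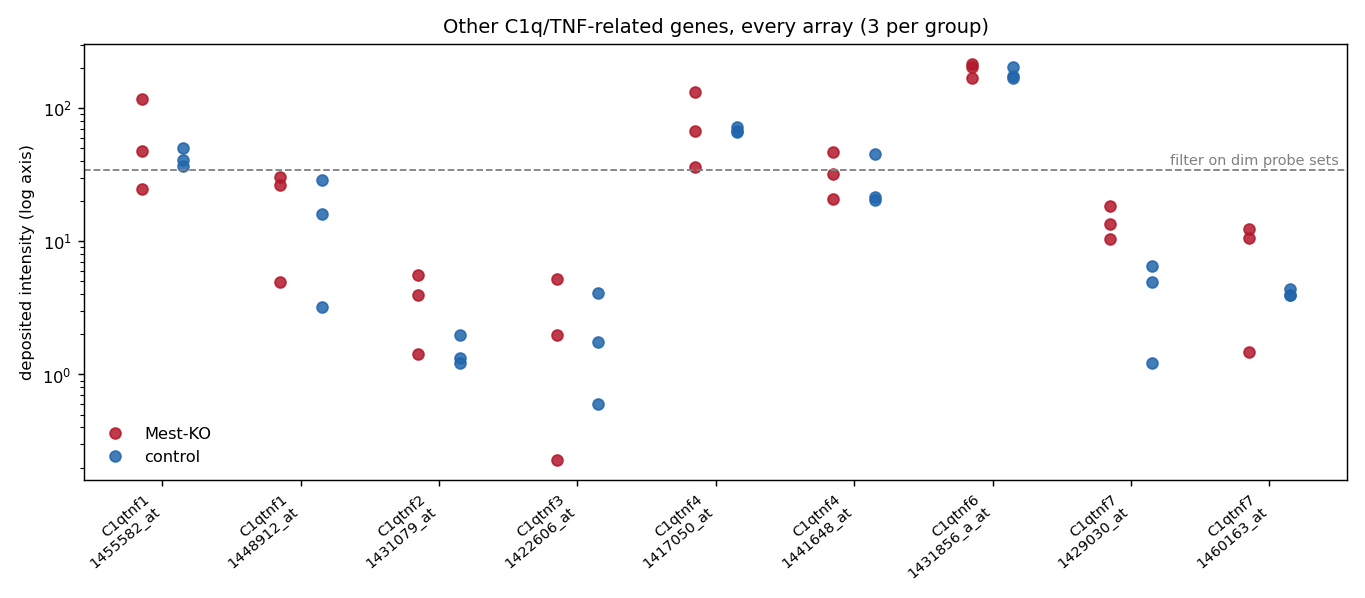
Deposited intensity (log axis) of the 9 probe sets of the other C1q/TNF-related genes on every array, Mest-KO in red left of control in blue. The dashed line is the filter at 34.4. C1qtnf6 lies above the line on all 6 arrays with overlapping groups, and the probe sets of C1qtnf2, C1qtnf3 and C1qtnf7 lie below it.

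The receptor genes were read well above the filter on all arrays. Adipor1 encodes the receptor tied mainly to AMPK and Adipor2 the one tied mainly to PPAR-alpha in mouse liver. The brightest Adipor1 probe set, 1451311_a_at, had 1854, 2057 and 1995 in Mest-KO, against 2116, 1841 and 1926 in control. The means were 1969 ± 104 in Mest-KO and 1961 ± 141 in control (SD, n = 3 each). The log2 difference was 0.01, with an SE of 0.104 and a 95% interval from -0.240 to 0.269. With an array left out it ran from -0.03 to 0.07, below 0 without Mest-KO 2, Mest-KO 3 or control 2.

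A second Adipor1 probe set, 1439017_x_at, had 1590, 1565 and 1416 in Mest-KO, against 1696, 1862 and 1688 in control. Its groups did not overlap, as was true of 4.68% of all probe sets in this direction, with a log2 difference of -0.19 (SE 0.0962). The x in its name is the manufacturer's mark for probes that may also match other transcripts. The third, 1424312_at, had 475.8, 389.5 and 362.8 in Mest-KO, against 483.7, 385.7 and 436.0 in control, overlapping groups with a log2 difference of -0.12 (SE 0.139). Without Mest-KO 1 this was -0.23, without Mest-KO 3 -0.03, without control 1 -0.06, without control 2 -0.18 and without both pools of one sex -0.29. The 3 readings of Adipor1 thus ranged from -0.19 to 0.01, and the 95% interval of each included 0.

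Adipor2 at 1434329_s_at had 770.2, 706.3 and 716.4 in Mest-KO, against 722.9, 783.5 and 786.3 in control. The groups overlapped, at a log2 difference of -0.08 (SE 0.0959, 95% interval -0.310 to 0.157), or from -0.13 without control 1 to -0.05 without control 3. The dimmer 1437864_at had 209.1, 124.2 and 145.9 in Mest-KO, against 194.2, 178.7 and 149.2 in control. Mest-KO 1 was the highest array there and Mest-KO 2 the lowest, and the log2 difference was -0.25 (SE 0.233). Leaving out both pools of one sex gave -0.41, leaving out control 3 gave -0.37, and with a Mest-KO pool left out the values were -0.48 (the first), -0.12 (the second) and -0.14 (the third).

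**Figure D4:**
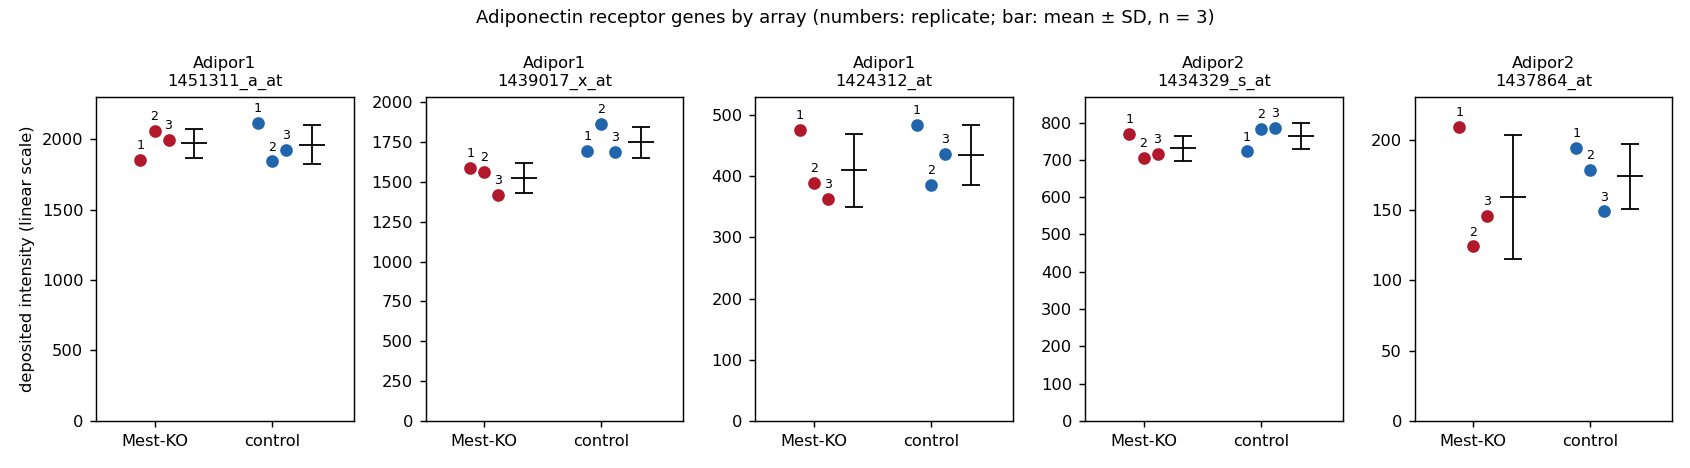
Deposited intensity (linear scale, starting at 0) of the 3 Adipor1 and 2 Adipor2 probe sets on every array, with the mean ± SD (n = 3) beside the points. The groups overlap in 4 of the 5 panels. At Adipor1 1439017_x_at the Mest-KO arrays, 1416 to 1590, lie below the controls, 1688 to 1862, as was true of 4.68% of all probe sets on the normalized scale.

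Of all 18 probe sets, 12 lay above the filter, reading 6 genes. On the normalized scale the groups did not overlap at 4 probe sets that were lower in Mest-KO, 3 of them of C1qtnf12 (4.68% of all probe sets were lower in this way), and at 2 that were higher, one of C1qtnf2 and one of C1qtnf7 (4.17%). Above the filter 0 of the 12 passed over all probe sets with limma, with or without the trend, and 3, all of C1qtnf12, had an unadjusted p under 0.05 (3.98% of probe sets did). Since this contrast chose C1qtnf12, nothing is read from these counts. The median log2 difference of the 12 was -0.16, against -0.01 over all probe sets above the filter, and 4 of the 12 read the same gene.

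**Figure D5:**
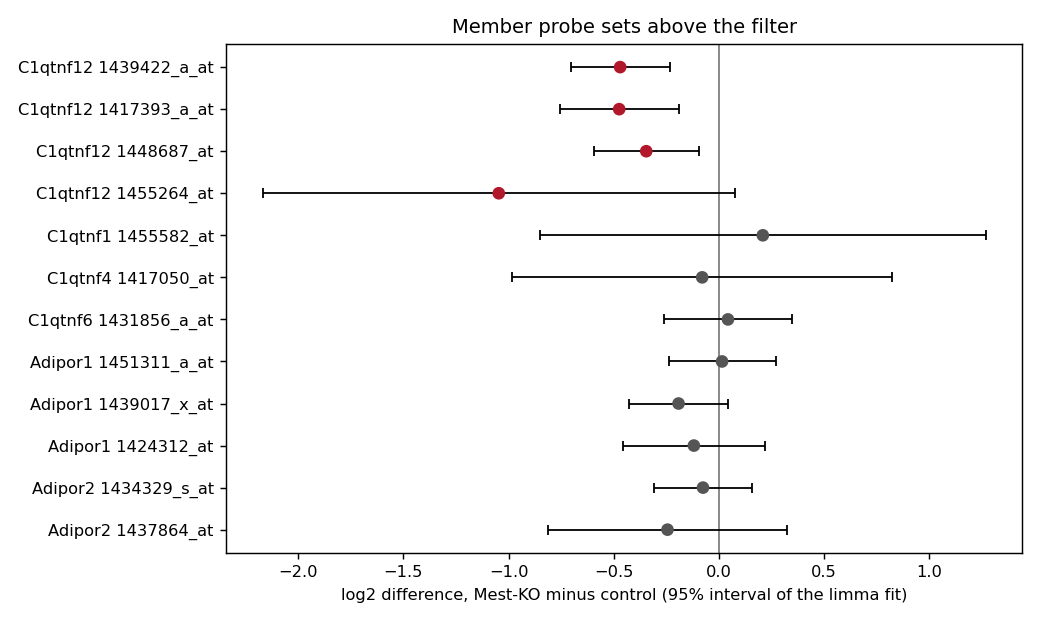
Log2 difference, Mest-KO minus control, of the 12 probe sets above the filter, with the 95% interval of the limma fit. C1qtnf12 is in red; the intervals of its 3 bright probe sets, such as -0.706 to -0.234 at 1439422_a_at, lie below 0, and those of the other 9 include 0.

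Other genes that encode C1q domains were listed as a second group. Of 23 such genes 20 were measured and 11 lay above the filter. Of these, 3 had a higher and 8 a lower mean in Mest-KO, where 49.1% of all genes were higher. With limma 0 passed (0% of genes). The median log2 difference was -0.06, against -0.00333 over all genes. Cbln1, which encodes cerebellin-1, a secreted organiser of cerebellar synapses, was the one whose groups did not overlap, as was true of 5.85% of genes in this direction. It had 702.2, 890.0 and 757.5 in Mest-KO, against 969.8, 951.9 and 927.3 in control, a log2 difference of -0.29 (SE 0.112). Its other probe sets gave -0.39 without overlap, as were 4.68% of all probe sets in this direction, and -0.33 with overlapping groups. All 3 readings of Cbln1 lay on the same side, but they read the same RNA of the same pools and are not further replicates. The other genes of smallest p overlapped between the groups. They were the cerebellin gene Cbln3 at -0.33 (SE 0.250), the synaptic C1q-like gene C1ql3 at -0.25 (SE 0.214) and the extracellular glycoprotein gene Emilin2 at -0.17 (SE 0.226). Adipoq, the gene of adiponectin itself, lay below the filter, with a mean of 14.2 in Mest-KO and 13.2 in control, and so did C1qtnf9, with 14.5 and 13.1.

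Around the receptors, 23 of 24 listed genes were measured and 20 lay above the filter. They cover AMPK subunits and their kinases, the adaptor Appl1, the co-receptor Cdh13 and the wider PAQR family of membrane receptors to which Adipor1 and Adipor2 belong. Of these 14 were higher and 6 lower in Mest-KO, where 49.1% of all genes were higher. The median log2 difference was 0.07, and 0 passed with limma. Paqr3, which encodes a Golgi protein that retains Raf kinase, had 810.3, 980.9 and 713.3 in Mest-KO, against 706.3, 646.1 and 576.0 in control, without overlap (4.74% of genes in this direction), at 0.36 (SE 0.139). Paqr4, another gene of the family, had 1367, 1404 and 1403 in Mest-KO, against 1439, 1624 and 1717 in control. It was lower without overlap (5.85% of genes in this direction), at -0.19 (SE 0.0964). Appl1 gave 0.15 (SE 0.0939) with overlapping groups at its brightest probe set and from -0.18 to 0.06 at the other 3. The one at -0.18 was lower in Mest-KO without overlap, as were 4.68% of all probe sets. The AMPK subunit gene Prkag1 gave -0.14 (SE 0.0949), and the catalytic subunit genes Prkaa1 and Prkaa2 gave -0.04 (SE 0.128) and 0.10 (SE 0.0946). Cdh13, for T-cadherin, which binds adiponectin, was below the filter.

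A further list held genes for handling such proteins. It included the protease gene Furin, whose product cleaves CTRP12, the transcription factor genes Klf15 and Klf3, reported to regulate C1qtnf12 in mouse fat cells, enzymes that modify collagen-like stretches, and neuronal binding partners of C1q-like proteins. Of 21 genes 18 were measured and 15 lay above the filter, 10 higher and 5 lower in Mest-KO, where 49.1% of all genes were higher. The median was 0.04, and 0 passed with limma. Furin gave 0.04 (SE 0.111). Klf3 had 2410, 2562 and 2087 in Mest-KO, against 2087, 2222 and 2106 in control, with overlap, at 0.14 (SE 0.0978). Its other probe sets above the filter ran from -0.92 to 0.54. The one at 0.54 was higher in Mest-KO without overlap, as were 4.17% of all probe sets. Klf15 was dim, with 33.0, 37.5 and 76.5 in Mest-KO, against 29.1, 23.2 and 42.4 in control, at 0.47 (SE 0.249). Ero1a, an oxidase gene of the endoplasmic reticulum, did not overlap between the groups and gave 0.21 (SE 0.104) at the probe set used, with -0.01 and -0.05 at its other probe sets. P4ha1, a subunit of collagen prolyl hydroxylase, gave 0.17 (SE 0.0949) without overlap, and 0.09 at its other probe set. Read from the brightest probe set of each gene, Ero1a and P4ha1 were the genes of this list without overlap, 2 of 15. Of all genes, 4.74% were higher in this way.

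The genes whose profile over the 6 arrays lay nearest to that of C1qtnf12 were found by the root mean square distance between log2 profiles, each centred on its own mean, among 12461 other genes. They were the clock gene Arntl at 0.0431 log2 units, the receptor-modifying protein gene Ramp3 at 0.0531, the meiotic recombination gene Mnd1 at 0.0554, the imprinted gene Nnat at 0.0654 and the phospholipid transfer protein gene Pltp at 0.0710, where the median distance of all genes was 0.287. Nnat, which encodes neuronatin, had 7494, 7596 and 7024 in Mest-KO, against 9964, 10110 and 10850 in control. All 5 lay between -0.42 and -0.48 in log2 difference, the range that the measure itself selects, and of the 5 Nnat had passed with the trend (limma adjusted p 0.0132). Among the relatives, Adipor2 lay nearest to C1qtnf12, at 0.224, and C1qtnf1 farthest, at 0.624.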

How the data were processed

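Otic vesicle RNA of 3 Mest-KO and 3 control pools was measured on Affymetrix mouse arrays. The authors deposited linear probe set intensities. They were made with Affymetrix Expression Console 1.1, per the submitters' processing notes; no source used here names the summarisation algorithm. Control probe sets (64 of 45101) were left out. Symbols come from the platform annotation and were updated through RefSeq identifiers (GRCm38.p6 table) for 34741 probe sets.

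A floor of 1 was applied to the intensities before log2, followed by quantile normalization. Genes were read from their brightest probe set, and 12462 genes and 27022 probe sets above the 40th percentile were fitted with limma 3.58.1 in R 4.3.3 (lmFit, eBayes, Benjamini-Hochberg over all). The fit was tested on simulated data with independent noise, where the differences set were much larger than that of C1qtnf12. How it performs at a difference of that size was not tested. Figures used matplotlib 3.10.9 in Python 3.11.15.

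The members and lists were chosen with earlier results of these data known. Named were all members, Tbx1, the 4 genes of smallest p per list and the 5 genes nearest in profile to C1qtnf12; others were named after their values were seen. Alternatives covered the filter, scaling, floor, choice of probe set, variance prior, array weights, replicate block and arrays left out. Same-numbered arrays of the groups did not deviate together (correlations of deviations -0.04, -0.01 and 0.03). With 3 arrays per group this cannot exclude a pairing, which the labels do not mention, and the main fit treated the arrays as unpaired. No 2 arrays shared more than 1 equal value. No protein or promoter sequence of C1qtnf12 was used here.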

Additional observations from a re-analysis of the deposited data

How the results depend on the processing

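The log2 difference of C1qtnf12 was -0.47 and below 0 under all 15 alternatives tried, from -1.05 with the most variable probe set, which is the dimmest, to -0.40 relative to the epithelial markers; with an array left out it ran from -0.50 to -0.42. It was -0.58 with the mean of its probe sets and -0.64 with median centring (each array on its median over all probe sets), which moved the median of all genes to -0.14; relative to that median it was -0.50. The trend under other settings and the difference relative to epithelial markers were chosen after seeing the data. With the trend the limma adjusted p of C1qtnf12 ranged from 0.0277 to 0.954 and passed under 4 of 16 alternatives (filter at the 60th percentile, deposited scaling alone, floor of 16, array weights). The replicate block left 0 genes called and gave C1qtnf12 a limma adjusted p of 0.116 with the trend. The count of genes called, 0, became 7 under the stricter filter (60th percentile), 25 with this median centring (4 higher and 21 lower), a count that may differ with another way of centring, 1 with the most variable probe set, 13 with the trend, 16 if that was fitted robustly, 7 at an adjusted p under 0.10 and 641 at an unadjusted p under 0.05. The count of probe sets, also 0, was 1 without a filter, 9 under the stricter filter, 15 with median centring, 14 with the trend and 17 with the robust trend. Both stayed at 0 with any array left out. The cause of these differences was not tested. Dim signal limits C1qtnf2, C1qtnf3 and C1qtnf7, and the signs of C1qtnf1, C1qtnf3, C1qtnf4, C1qtnf6, the second C1qtnf7 probe set and the brightest Adipor1 probe set turned under at least 1 alternative.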

Other observations

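The genes next to C1qtnf12 on mouse chromosome 4 were looked at after the values had been seen. In the RefSeq order, 4 protein-coding genes on either side were taken, and 5 of the 8 had a probe set above the filter. Ube2j2, a ubiquitin-conjugating enzyme gene and the immediate neighbour on one side, had a log2 difference of -0.19 (SE 0.144), and B3galt6, a galactosyltransferase gene on the other side, one of -0.24 (SE 0.135), both with overlapping groups. Sdf4, a calcium-binding Golgi protein gene and next after B3galt6, had 3428, 2890 and 2931 in Mest-KO, against 3510, 3517 and 3632 in control, a log2 difference of -0.19 (SE 0.0971) without overlap, as was true of 5.85% of genes in this direction. Ints11, a subunit of the Integrator complex, gave 0.04 (SE 0.103). Tnfrsf4, a receptor gene of T cells, was dim and gave -0.96 (SE 0.945). None of these passed with limma.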
